A study of Mus musculus with 2 samples.

Results

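The 10 genes described here are the ligands Bmp4, Bmp6, Tgfb1, Tgfb2 and Tgfb3, the receptors Tgfbr1, Tgfbr2 and Tgfbr3, and the antagonists Grem1 and Bambi of the BMP and TGF-beta pathways, out of 32285 genes counted in cells of old mouse bone. They form a list given by name, with no threshold on their values, but it was drawn up with earlier results of these data known. Their levels were compared over 5 cell classes, which held 8627 of the 9573 cells kept, those with at least 200 genes and at most 20% mitochondrial counts. Bmp4, Bmp6, Grem1 and Tgfbr3 had their highest level in LEPR stromal cells, Tgfb1 in megakaryocytes, Tgfb2, Tgfb3 and Tgfbr1 in fibroblasts, and Tgfbr2 and Bambi in endothelial cells.

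The cells came from the femurs and tibias of untreated male INK-ATTAC mice aged 24 months. INK-ATTAC mice carry a transgene in which the p16 promoter drives a caspase that a drug can switch on, so that p16-expressing cells can be removed, and every cell here carries it. Cells of 3 mice were depleted of blood lineages, sorted as CD45-SyTOX- (live cells without the pan-leukocyte marker), pooled and run in 2 lanes of a 10x Genomics 3′ assay. The lanes shared 10928 of 11056 barcodes and therefore hold the same cells, so there was 1 sample, no replicate of mice, and no p-value is given. Lane values are given as a description, since lanes of the same cells are close by design and are no replicates. Intervals are exact at 95% and cover counting error only.

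BMP and TGF-beta proteins are secreted dimers that bind pairs of type I and type II receptor kinases, which phosphorylate SMAD proteins that then enter the nucleus. BMP ligands direct mesenchymal cells towards bone, whereas TGF-beta is stored in the matrix in a latent form and acts on matrix production and on blood stem cells. Gremlin 1 binds BMP ligands outside the cell, and BAMBI is a receptor-like membrane protein that lacks a kinase.

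Bmp4, Bmp6 and Grem1 were the secreted members with their highest level in LEPR stromal cells, and their promoters are shown for that reason. Each line gives the 250 bases before the RefSeq start in GRCm38.p6, read 5′ to 3′ on the strand of the gene. For Bmp6 the window lies inside the gene as GENCODE places it (chr13:38345107-38500302). The sources thus differ on its start, and the window may hold transcribed sequence.
Bmp4, chr14:46390670-46390919, minus strand: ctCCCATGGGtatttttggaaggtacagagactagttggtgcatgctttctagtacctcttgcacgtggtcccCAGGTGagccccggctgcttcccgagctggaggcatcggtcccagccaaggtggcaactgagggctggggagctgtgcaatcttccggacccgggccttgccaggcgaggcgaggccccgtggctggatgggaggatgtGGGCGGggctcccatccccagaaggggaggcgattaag
Bmp6, chr13:38345466-38345715, plus strand: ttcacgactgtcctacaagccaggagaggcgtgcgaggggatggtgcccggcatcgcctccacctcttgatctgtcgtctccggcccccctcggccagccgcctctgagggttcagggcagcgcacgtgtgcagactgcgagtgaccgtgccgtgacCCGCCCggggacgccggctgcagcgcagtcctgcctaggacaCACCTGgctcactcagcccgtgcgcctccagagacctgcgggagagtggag
Grem1, chr2:113758649-113758898, minus strand: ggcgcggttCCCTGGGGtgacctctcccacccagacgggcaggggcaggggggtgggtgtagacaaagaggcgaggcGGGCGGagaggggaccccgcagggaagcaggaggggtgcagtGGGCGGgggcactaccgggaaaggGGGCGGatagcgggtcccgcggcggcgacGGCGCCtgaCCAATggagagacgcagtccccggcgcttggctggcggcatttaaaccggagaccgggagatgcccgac
Capitals mark matches, on either strand and without overlap between motifs, to the motifs that were searched. The GC box GGGCGG was found in all 3 promoters and in 32.7% of the 32851 promoters of the RefSeq table. The core CCCNNGGG bound by EBF factors was found in Bmp4 and Grem1 (11.8% of all promoters), and the E box CACCTG in Bmp4 and Bmp6 (17.2%). Grem1 also held CCAAT (33.8% of all promoters) and GGCGCC, a GC-rich element of BMP-responsive genes (9.59%). The TATA box TATAAA (12.4%), the forkhead motif TGTTTAC (3.17%) and the SMAD palindrome GTCTAGAC (0.167%) had no match in these windows. The GC content was 63.2% for Bmp4, 68.8% for Bmp6 and 72% for Grem1, against a median of 52.4% over all promoters.

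LEPR stromal cells were those with at least 1 UMI of Lepr, the leptin receptor, and at least 5000 CPM of Cxcl12, the chemokine that these cells supply to blood stem cells. A UMI (unique molecular identifier) marks 1 captured RNA molecule, and CPM scales the UMIs of a gene to 1000000 UMIs of its class. The other classes were clusters named from fixed marker lists, and the members and all other pathway genes were kept out of the clustering. There were 1877 LEPR stromal cells, 145 fibroblast-like, 62 endothelial-like, 146 megakaryocyte-like and 6397 erythroid-like cells, with median depths of 5188, 8326, 3171, 8856 and 28455 UMIs in both lanes together. Of the LEPR stromal markers 15 of 15 were highest in their own class, as were 13 of 13 endothelial, 12 of 12 megakaryocyte, 15 of 15 erythroid and 12 of 15 fibroblast markers, the exceptions being Ly6a, Pdgfra and Cd34. This is a description and no independent check, since the gate used Lepr and Cxcl12 and the clusters were named from these lists. RNA of erythroid cells was present in the other classes. The summed level of 11 erythroid markers other than globins was 7.73% of its erythroid level in LEPR stromal cells, 21.8% in fibroblasts, 35.7% in endothelial cells and 23.7% in megakaryocytes. Because 3′ libraries capture the end of each RNA, levels are compared between classes for the same gene and not between genes.

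Among the BMP ligands, Bmp4 (chr14:46383520-46390669, minus strand), which promotes formation of bone and supports the marrow niche, stood at 238 CPM in lane 1 and 243 CPM in lane 2 of the LEPR stromal cells. Its pooled level there was 240 CPM (interval 228 to 254). Fibroblasts held 42.7 and 43.9 CPM in the same lanes. The ratio of LEPR stromal cells to fibroblasts was 5.56-fold, or 2.47 on the log2 scale (1.99 to 3.00). In endothelial cells Bmp4 had 0 UMIs in lane 1 and 2 UMIs in lane 2, and in megakaryocytes 1 and 4 UMIs. These levels, 5.9 and 1.44 CPM, did not differ from each other beyond their intervals. Erythroid cells held 0.27 CPM (0.18 to 0.39).

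Bmp6 (chr13:38345107-38500302, plus strand), a ligand that in liver also sets hepcidin and iron balance, stood at 253 and 260 CPM in the lanes of the LEPR stromal cells. The next class was endothelial cells, with 42 CPM in lane 1 and 11.6 CPM in lane 2, from 7 and 2 UMIs. LEPR stromal cells were 9.68-fold higher than endothelial cells, or 3.27 on the log2 scale (1.99 to 5.01). Fibroblasts held 8.04 CPM (3.1 to 17), which did not differ from endothelial cells beyond counting error. No UMI of Bmp6 was seen in 146 megakaryocytes, which allows a level of up to 1.72 CPM at the floor of 3 UMIs. The LEPR stromal level was 149-fold above that floor, and the interval of the ratio began at 6.92 on the log2 scale. Erythroid cells held 0.207 CPM. Part of Txndc5 overlaps Bmp6 on the other strand.

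Without thinning, the shares of cells gave the same order of classes as CPM for both BMP ligands. With a UMI in either lane counted, Bmp4 was seen in 798 of 1877 LEPR stromal cells (42.5%, 40.3 to 44.8) and in 47 of 6397 erythroid cells (0.735%), although erythroid cells were far deeper. Bmp6 was seen in 1072 LEPR stromal cells (57.1%, 54.8 to 59.4) and in 0.625% of erythroid cells. Lane 1 was also thinned to 1000 UMIs per cell, which 1750 LEPR stromal, 142 fibroblast, 47 endothelial, 126 megakaryocyte and 6285 erythroid cells reached. At that equal depth Bmp4 was seen in 17.6% of LEPR stromal cells (15.8 to 19.5), 5.63% of fibroblasts (2.46 to 10.8), 0.0955% of erythroid cells, and none of the endothelial cells (0 to 7.55) or megakaryocytes (0 to 2.89). Bmp6 was seen in 20.8% of LEPR stromal cells (18.9 to 22.8), 4.26% of endothelial cells (0.52 to 14.5), 2.11% of fibroblasts (0.438 to 6.05), 0.0477% of erythroid cells and no megakaryocyte (0 to 2.89).

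Among the TGF-beta ligands, Tgfb1 (chr7:25687002-25705077, plus strand), the form released by platelets, had its highest level in megakaryocytes, the cells that make platelets, at 436 and 464 CPM in the lanes. Endothelial cells followed at 90 and 69.6 CPM, fibroblasts at 77.9 and 79.2 CPM, and erythroid cells at 60.8 and 62.9 CPM. In that order endothelial cells and fibroblasts, and fibroblasts and erythroid cells, did not differ beyond counting error. LEPR stromal cells were lowest, at 35 and 35.1 CPM, which was 12.8-fold below megakaryocytes, or -3.68 on the log2 scale (-3.92 to -3.45). They were 1.76-fold below erythroid cells. Of the 35.1 CPM in LEPR stromal cells, 4.78 CPM (13.6%) would be erythroid RNA at the rate of the 11 erythroid markers. These markers had a higher rate in endothelial cells (35.7%), megakaryocytes (23.7%) and fibroblasts (21.8%). The erythroid part of Tgfb1 is therefore larger there at that rate, and the levels above include it. Tgfb1 was seen in 118 of 146 megakaryocytes (80.8%, 73.5 to 86.9). At 1000 UMIs per cell the share was 32.5% (24.5 to 41.5) in megakaryocytes, 8.51% in endothelial cells (2.37 to 20.4), 6.11% in erythroid cells (5.53 to 6.73), 3.52% in fibroblasts (1.15 to 8.03) and 3.37% in LEPR stromal cells (2.58 to 4.33). The fibroblast interval overlapped those of erythroid and LEPR stromal cells, whereas by CPM fibroblasts were above LEPR stromal cells. The 8 erythroid clusters ranged from 40.1 to 108 CPM of Tgfb1.

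Tgfb2 (chr1:186622792-186705989, minus strand), a form prominent in mesenchymal development, was highest in fibroblasts, with 100 and 125 CPM in the lanes. LEPR stromal cells held 7.95 and 8.05 CPM, far below fibroblasts. The difference was 14.1-fold, or -3.82 on the log2 scale (-4.38 to -3.28). Endothelial cells were between them at 53.1 CPM (24.3 to 101), below fibroblasts by 2.13-fold with an interval that came close to equality (0.11 to 2.27 on the log2 scale). The 10 UMIs of Tgfb2 in megakaryocytes, 5 in each lane, lay in 1 cell. Tgfb2 was seen in 48 of 145 fibroblasts (33.1%) and in 63 of 1877 LEPR stromal cells (3.36%). At equal depth these shares were 5.63% (2.46 to 10.8) and 0.8% (0.438 to 1.34), with 6.38% of endothelial cells (1.34 to 17.5) and 0.0159% of erythroid cells. Fibroblasts were thus highest by CPM, and the shares did not separate them from endothelial cells.

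Tgfb3 (chr12:86056745-86079041, minus strand), the third form of the ligand, was a gene of the mesenchymal classes. Fibroblasts held 46.5 and 54.8 CPM in the lanes and LEPR stromal cells 32.9 and 30.4 CPM. The fibroblast level was 1.6-fold higher, a difference of 0.68 on the log2 scale (0.15 to 1.18). In the 62 endothelial cells Tgfb3 had no UMI, which allows up to 17.7 CPM at the floor of 3 UMIs. The LEPR stromal level was 1.79-fold above that floor, and the interval of the ratio began at 0.52 on the log2 scale. Megakaryocytes had 1 UMI in 1 lane, and erythroid cells stood at 0.0772 CPM. Ttll5 overlaps Tgfb3 on the other strand.

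Each of the 3 receptors was found in LEPR stromal cells, fibroblasts and endothelial cells, but with a different class in front. Tgfbr3 (chr5:107106570-107289629, minus strand), or betaglycan, a co-receptor without a kinase that presents TGF-beta ligands and also binds inhibin, was highest in LEPR stromal cells at 476 and 480 CPM. Fibroblasts held 163 and 166 CPM, a difference of 2.91-fold or 1.54 on the log2 scale (1.29 to 1.80). Endothelial cells held 36 and 98.6 CPM in the lanes, from 6 and 17 UMIs, with a pooled level of 67.8 CPM (34.5 to 120). Erythroid cells stood at 5.79 CPM and megakaryocytes at 2.3 CPM, which did not differ beyond counting error. Tgfbr3 was seen in 1465 of 1877 LEPR stromal cells (78.1%) and, at equal depth, in 37.8% of them (35.5 to 40.1), 17.6% of fibroblasts (11.7 to 24.9), 6.38% of endothelial cells (1.34 to 17.5) and 0.7% of erythroid cells.

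Tgfbr2 (chr9:116084293-116175360, minus strand), the type II kinase that binds the ligand first, was highest in endothelial cells, at 216 CPM in lane 1 and 151 CPM in lane 2. Fibroblasts followed at 103 and 132 CPM, and the lower end of the interval of their difference was 0.00 on the log2 scale (to 1.24). LEPR stromal cells held 59.4 and 65.7 CPM, below both classes. They were 2.92-fold below endothelial cells (-1.55 on the log2 scale, -2.08 to -0.97) and 1.88-fold below fibroblasts (-0.91, -1.24 to -0.56). At equal depth Tgfbr2 was seen in 13 of 47 endothelial cells (27.7%, 15.6 to 42.6), 8.45% of fibroblasts, 6.51% of LEPR stromal cells and 0.0318% of erythroid cells.

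Tgfbr1 (chr4:47353222-47414931, plus strand), the type I kinase that phosphorylates SMAD2 and SMAD3, was the most evenly spread receptor. Its level was 49.5 CPM in fibroblasts (35.3 to 67.4), 30.2 CPM in LEPR stromal cells (25.8 to 35.3) and 20.6 CPM in endothelial cells (4.98 to 56.1). Megakaryocytes held 9.77 CPM (5.69 to 15.6) and erythroid cells 4.91 CPM (4.49 to 5.35). Fibroblasts exceeded LEPR stromal cells by 1.64-fold (0.17 to 1.22 on the log2 scale), whereas LEPR stromal and endothelial cells, and endothelial cells and megakaryocytes, did not differ beyond counting error.

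The antagonist Grem1 (chr2:113746164-113758646, minus strand) was highest in LEPR stromal cells, with 329 and 327 CPM in the lanes. Fibroblasts held 15.1 and 13.4 CPM, from 5 cells. LEPR stromal cells were 23.1-fold higher than fibroblasts, or 4.53 on the log2 scale (3.70 to 5.51). No UMI was seen in 62 endothelial cells or in 146 megakaryocytes, and the LEPR stromal level was 18.5-fold and 190-fold above the same floor. The intervals of these ratios began at 3.91 and 7.27 on the log2 scale. Erythroid cells held 0.236 CPM. Grem1 was seen in 1046 of 1877 LEPR stromal cells (55.7%) and in 0.625% of erythroid cells, and at equal depth in 22.7% (20.7 to 24.7) and 0.0955%, with 0.704% of fibroblasts (0.0178 to 3.86).

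The pseudoreceptor Bambi (chr18:3507923-3516404, plus strand) was highest in endothelial cells and fibroblasts. Endothelial cells held 54 and 58 CPM in the lanes, from 9 and 10 UMIs, and fibroblasts 41.4 and 34.1 CPM, which did not differ beyond counting error. LEPR stromal cells held 19.1 and 18.8 CPM. They were 2.95-fold below endothelial cells (-1.56 on the log2 scale, -2.52 to -0.43) and 1.99-fold below fibroblasts (-0.99, -1.59 to -0.36). Bambi was seen in 6.71% of LEPR stromal cells, 22.1% of fibroblasts and 16.1% of endothelial cells, and at equal depth in 1.77%, 7.04% and 8.51%, against 0.175% of erythroid cells.

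**Figure D1:**
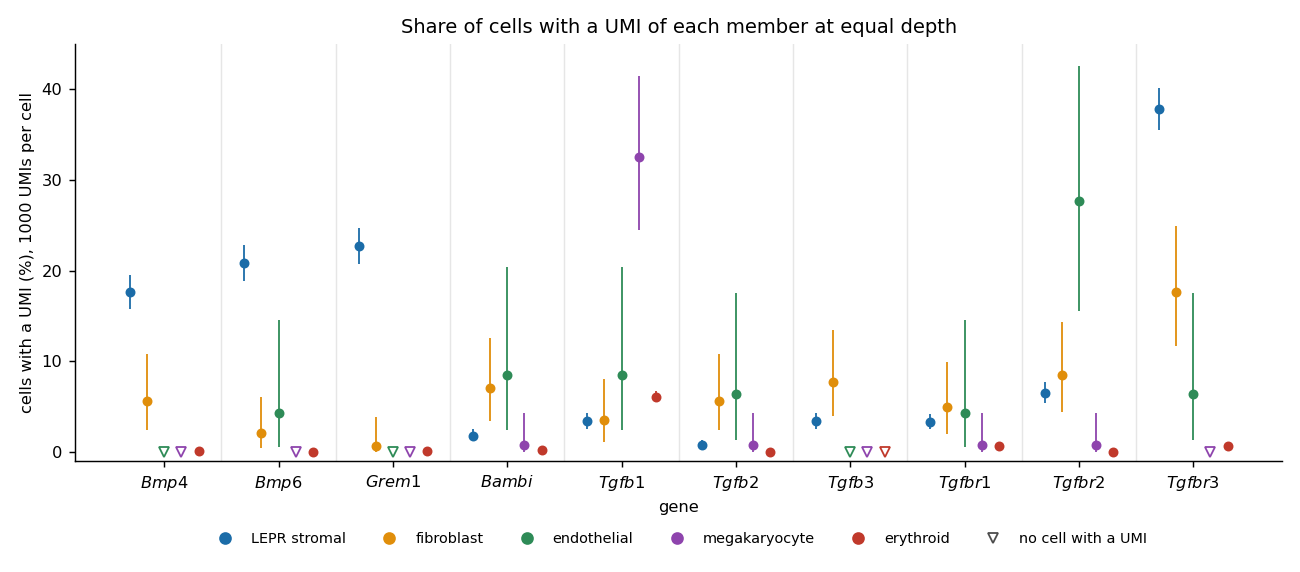
Share of cells with at least 1 UMI of each gene after lane 1 was thinned to 1000 UMIs per cell, with exact 95% binomial intervals and open triangles where no cell had a UMI. Tgfbr3 is seen in 37.8% of LEPR stromal cells, Tgfb1 in 32.5% of megakaryocytes and Tgfbr2 in 27.7% of endothelial cells.

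By class, 4 of the 10 genes (Bmp4, Bmp6, Grem1 and Tgfbr3) were highest in LEPR stromal cells, 3 in fibroblasts (Tgfb2, Tgfb3 and Tgfbr1), 2 in endothelial cells (Bambi and Tgfbr2) and 1 in megakaryocytes (Tgfb1). Of all 11732 measured genes, those with at least 20 UMIs and 5 CPM in some class, 36.2% were highest in LEPR stromal cells, so the members' share was near the background. Against fibroblasts, 4 members were at least 2-fold higher in LEPR stromal cells (background 21.6%) and 2 at least 2-fold lower, Tgfb1 and Tgfb2 (background 11.3%). Against endothelial cells 5 were at least 2-fold higher by measured CPM (33.8%) and 4 lower (16.2%). The 5 include Tgfb3, which had no UMI in endothelial cells. Its LEPR stromal level was 1.79-fold above the floor of 3 UMIs there, so 2-fold is not shown for it. Against megakaryocytes 9 were higher (39.4%) and Tgfb1 was lower (19.3%). Against erythroid cells 9 were higher (48.7%) and none lower (18.0%), with Tgfb1 between these limits. Erythroid RNA was not subtracted for these counts. Tgfb1 lay near the limit, at 2.27-fold below endothelial cells and 2.24-fold below fibroblasts.

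Low levels of the members in erythroid cells were set beside the amount of stromal RNA there. The summed level of the 15 LEPR stromal markers in erythroid cells was 0.103% of its level in LEPR stromal cells. At that rate erythroid cells would hold 0.248 CPM of Bmp4, 0.265 CPM of Bmp6 and 0.339 CPM of Grem1 from stromal RNA, and 0.27, 0.207 and 0.236 CPM were measured. The erythroid levels of these 3 genes were thus 1.09, 0.782 and 0.698 times that amount, and they are not read as expression. The rate was taken to be the same for every gene, which was not tested. Tgfb3 stood at 2.36 times and Tgfbr2 at 4.63 times, both from few UMIs (8 and 31). Tgfb1 exceeded that amount 1708-fold, Tgfbr1 157-fold, Bambi 88.9-fold, Tgfbr3 11.7-fold and Tgfb2, from 12 UMIs, 14-fold. The same 15 markers summed to 6.76% of their LEPR stromal level in fibroblasts and 6.33% in endothelial cells. They ranged there from 0.161% (Adipoq) to 62.6% (Pdgfra) in fibroblasts and from 0% (Il7 and Pdgfrb) to 24.4% (Ebf1) in endothelial cells. The summed rate therefore does not tell RNA made by these cells from RNA carried over. At the summed rate stromal RNA would give 16.3 CPM of Bmp6, 15.2 CPM of Bmp4 and 20.8 CPM of Grem1 in endothelial cells, where 26.5, 5.9 and 0 CPM were measured. Most of the endothelial sum was Cxcl12 (2014 of 2827 CPM), so this rate is largely that of Cxcl12 and no measured amount of carried-over RNA. In fibroblasts it would give 22.2 CPM of Grem1, 17.4 CPM of Bmp6 and 16.3 CPM of Bmp4, where 14.2, 8.04 and 43.3 CPM were measured.

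**Figure D2:**
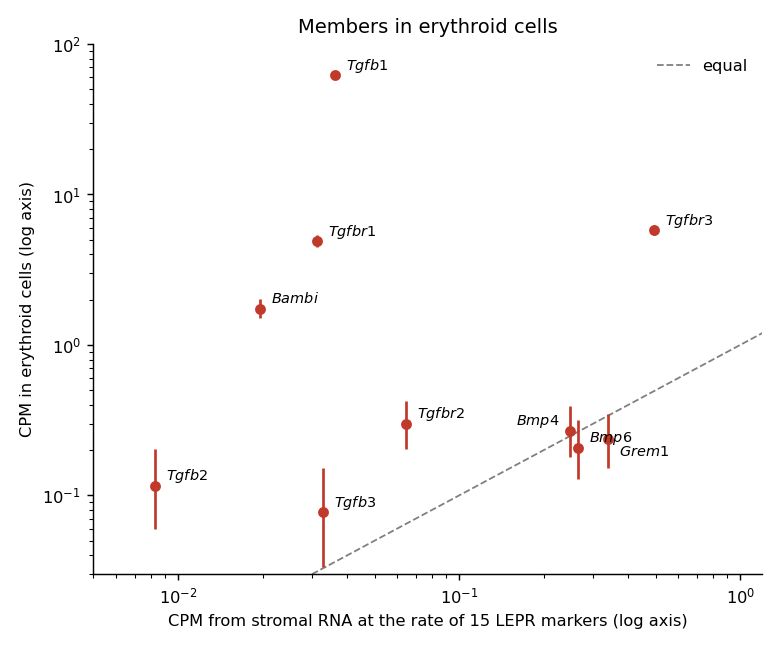
Level of each gene in erythroid cells (vertical, CPM, log axis, bars for 95% counting intervals) against the level that stromal RNA would give at the rate of 15 LEPR markers (horizontal, CPM, log axis), with a dashed line at equality. Bmp4, Bmp6 and Grem1 lie at the line, and Tgfb1 lies 1708-fold above it.

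The LEPR stromal cells were clustered again without the members and pathway genes to see whether the members varied among them. The largest sub-clusters were led by Dnm3os and Chl1 (531 cells), by Ibsp, a bone matrix gene (455 cells), by the immediate early genes Fos and Egr1 (340 cells), and by the interferon-induced genes Ifit1 and Isg15 (264 cells). Bmp4 and Bmp6 went in opposite directions between the first of these. Bmp4 stood at 332 CPM (301 to 365) in the Dnm3os-led cells and at 182 CPM (161 to 205) in the Ibsp-led cells, a difference of 0.87 on the log2 scale (0.64 to 1.09). Bmp6 stood at 258 CPM (231 to 288) and 345 CPM (316 to 376), a difference of -0.42 (-0.62 to -0.22). The Dnm3os-led cells were also led by Lars2. That gene led an erythroid cluster too, beside the mitochondrial genes mt-Nd4l, mt-Atp8 and mt-Nd5, and its tie to the Bmp4 and Bmp6 levels was not tested. The lanes, which hold the same cells, gave 335 and 329 against 185 and 179 CPM for Bmp4. For Bmp6 they gave 258 and 258 against 347 and 343 CPM. At a lower clustering resolution (0.4), tried after these values were seen, 436 of the 455 Ibsp-led and 263 of the 264 interferon-led cells fell into the same sub-cluster. The difference between the Dnm3os-led cells and that sub-cluster was then 0.23 for Bmp4 (0.05 to 0.42) and -0.12 for Bmp6 (-0.31 to 0.06).

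Grem1 varied least of the 4 members that were highest in LEPR stromal cells, from 312 CPM in the Dnm3os-led to 383 CPM in the Fos-led cells. Tgfbr3 ranged from 561 CPM in the Dnm3os-led cells to 421 CPM in the interferon-led cells, and Tgfbr2 was highest in the Ibsp-led cells at 88.4 CPM (73.8 to 105). Bambi was highest in the Fos-led cells at 32.6 CPM (21.9 to 46.6), against 13.7 CPM in the Dnm3os-led and 15.4 CPM in the Ibsp-led cells. The interferon-led cells, at 25.4 CPM of Bambi, did not differ from the Fos-led cells beyond counting error. Id1, a direct BMP target, stood at 110 CPM in the Fos-led cells and at 28.2, 15.7 and 66.3 CPM in the Dnm3os-led, Ibsp-led and interferon-led cells. Fos itself stood at 2465 CPM in the Fos-led cells and at 45.5 CPM in the Dnm3os-led cells, and its part in the Bambi and Id1 levels was not tested. Tgfb3 was lowest in the interferon-led cells at 20.7 CPM (12.6 to 32), against 39.2 CPM in the Dnm3os-led cells. For Tgfb1, Tgfb2 and Tgfbr1 none of the 6 pairs among these sub-clusters differed beyond counting error. The 6 pairs of each gene were not adjusted for their number, and the intervals hold no spread between mice.

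The smaller sub-clusters held 137 cells (led by Apod and Dcn), 66 cells (led by F830016B08Rik and Kcnq1ot1), 56 and 28 cells. In the 56 cells led by histone genes and the proliferation gene Mki67, Bmp4 stood at 120 CPM, Bmp6 at 103 CPM, Grem1 at 147 CPM and Tgfbr3 at 217 CPM, each below the level of the other LEPR stromal cells together. The erythroid markers in these cells reached 37.9% of their erythroid level, with a median depth of 11650 UMIs, and the part of this in the lower levels was not tested. The 28 cells led by Sparcl1, Wif1 and Spp1 held 686 CPM of Tgfbr3 (527 to 877), a difference from the other LEPR stromal cells together of 0.53 on the log2 scale (0.15 to 0.89). The level has an interval that overlaps those of the Dnm3os-led (521 to 604) and Ibsp-led cells (496 to 571).

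**Figure D3:**
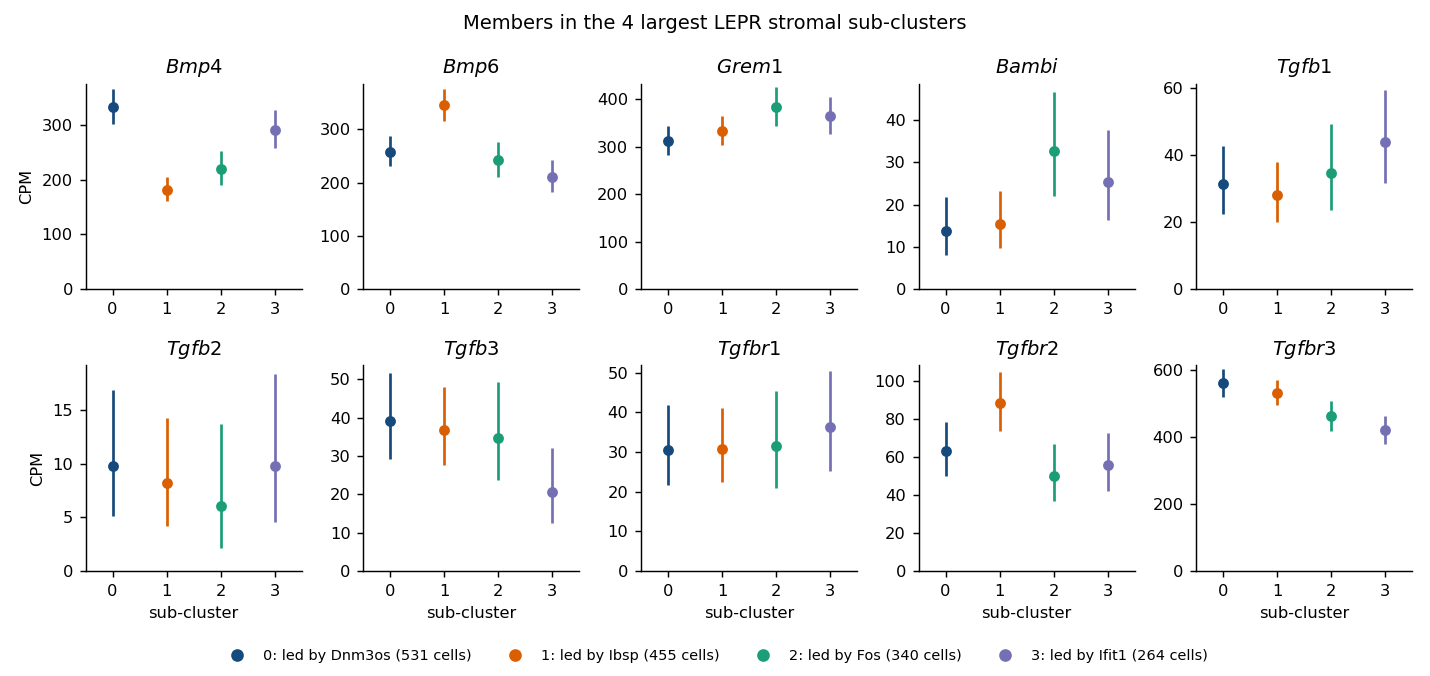
CPM of each gene (linear axes from 0) in the 4 largest sub-clusters of LEPR stromal cells, with exact 95% counting intervals. Bmp4 stands at 332 CPM in the Dnm3os-led and 182 CPM in the Ibsp-led cells, and Bmp6 at 258 and 345 CPM.

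Single LEPR stromal cells often held a BMP ligand together with Grem1. Without thinning, 510 of 1877 cells (27.2%) had a UMI of both Bmp4 and Grem1, and 682 (36.3%) of both Bmp6 and Grem1. A deeper cell holds a UMI of any gene more often, so the count was repeated at 1000 UMIs per cell. There 79 of 1750 cells held Bmp4 and Grem1, where the product of their shares gives 69.9 cells. For Bmp6 and Grem1 the counts were 82 and 82.6 cells, and for Bmp4 and Bmp6 68 and 64.1 cells. At equal depth the genes were thus seen together about as often as their shares alone give. Between cells with and without a UMI of Bmp4, the genes with the largest CPM ratios of 3168 compared were Igf2, Chl1, Cep170, Ptch1 and Rspo2, at 2.17-fold to 1.93-fold. The ratios that led for Bmp6 (Supt6, 2.05-fold), Grem1 (Etfa, 2.07-fold), Tgfbr2 (Mrpl14, 2.43-fold) and Tgfbr3 (Git2, 2.08-fold) were of like size and rested on 21 to 57 UMIs in the cells with the gene, so nothing is read from them.

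The fibroblast-like class held cells of more than one kind, and the members differed between them. By a division chosen after the values were seen, 32 of its 145 cells held a UMI of Bglap or Dmp1, genes of osteoblasts and osteocytes, and had 9175 CPM of Col1a1. Nearly all fibroblast UMIs of Grem1 lay in these, where it stood at 55.3 CPM (27.1 to 100), while the remaining 113 cells held 1.62 CPM (0.0409 to 9.01). These UMIs came from 3 and 2 cells. Tgfb2 was lower in them, with 26.3 CPM (8.55 to 61.5) and 140 CPM (112 to 173), as were Tgfbr2 (50 against 138 CPM), Tgfbr3 (52.7 against 199 CPM) and Bmp4 (13.2 against 52.5 CPM, -4.65 to -0.20 on the log2 scale). Tgfb1 was higher in them (129 CPM, 83.1 to 191) than in the remaining cells (63 CPM, 44.8 to 86.2). For Bambi, at 57.9 and 31.5 CPM, the interval of the ratio covered equality. The remaining 113 cells were mixed as well, by genes named after their values were seen. They held the pericyte markers Rgs5 at 537 CPM (14 cells) and Acta2 at 240 CPM (9 cells), and Ibsp at 2147 CPM (16 cells).

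The rest of the pathway was described from 7 lists that include the members and hold 95 genes, of which 72 were measured. Of these 28 were highest in LEPR stromal cells, 27 in fibroblasts, 14 in endothelial cells, 3 in megakaryocytes and none in erythroid cells. The share over all measured genes that were highest in LEPR stromal cells is the 36.2% given above, and nothing particular to a list is read from its count. Of the BMP family ligands 11 of 21 were measured, 4 of them highest in LEPR stromal cells. Beside Bmp6 and Bmp4 these cells held Bmp5 at 143 CPM, against 48.9 CPM in fibroblasts. Bmp1, a procollagen protease, stood at 83.8 CPM in LEPR stromal cells (76.3 to 91.9) and 95.9 CPM in fibroblasts (75.7 to 120), and Gdf10 at 45 CPM (39.5 to 51.1) and 67.4 CPM (50.7 to 87.8). Bmp2, a strong inducer of bone, was highest in fibroblasts (281 CPM against 38 CPM in LEPR stromal cells), and the activin subunit gene Inhbb stood at 35.4 CPM in endothelial cells (13 to 77, from 3 cells) and 20.4 CPM in fibroblasts (11.8 to 32.9). Inhba, another activin subunit gene, named after its values were seen, had 246 CPM in fibroblasts and 7.81 CPM in LEPR stromal cells.

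Of 16 listed antagonists 9 were measured, and 6 were highest in LEPR stromal cells (36.2% of all measured genes). Chrdl1, a chordin-like BMP binder, stood at 780 CPM in LEPR stromal cells and 21 CPM in fibroblasts, and Fst, or follistatin, which binds activins, at 560 and 127 CPM. Fstl1 held 839 and 415 CPM, and Crim1 186 and 43.3 CPM, with 121 CPM in endothelial cells. Twsg1, a BMP binder, stood at 100 CPM in fibroblasts, 71.4 CPM in LEPR stromal cells, 16.2 CPM in erythroid cells and 10.6 CPM in megakaryocytes. Noggin and chordin, the classical BMP antagonists (Nog and Chrd, named after their values were seen), had 2.88 and 2.05 CPM in LEPR stromal cells and did not reach the limit for measured genes. Nbl1, a further BMP binder named after its values were seen, stood at 3.91 CPM in LEPR stromal cells (2.42 to 5.97) and 270 CPM in fibroblasts (235 to 308), a difference of -6.11 on the log2 scale and the furthest from 0 among the 9. The median ratio of LEPR stromal cells to fibroblasts over the antagonists was 1.02 on the log2 scale, against 0.23 over all 11700 genes with a value.

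Of 13 measured receptors and co-receptors 7 were highest in LEPR stromal cells (36.2% of all genes), with a median of 0.80 on the log2 scale against fibroblasts. In these cells Bmpr2, the type II receptor of BMP ligands, stood at 164 CPM, Acvr2a at 116 CPM and Acvr1 at 79.6 CPM, and Eng, an endothelial co-receptor, was highest in endothelial cells (351 CPM against 41 CPM). Of 11 measured genes of TGF-beta ligands and latency 3 were highest in LEPR stromal cells (36.2% of all genes), with a median of -0.15. Latent TGF-beta binding proteins, which anchor the latent ligand in matrix, differed among themselves. Ltbp2 (257 CPM) and Ltbp1 (231 CPM) were highest in LEPR stromal cells, while Ltbp4 stood at 5.3 CPM there, 163 CPM in fibroblasts and 242 CPM in endothelial cells. Thbs1, a matrix protein that can release active TGF-beta, reached 191 CPM in megakaryocytes and 131 CPM in LEPR stromal cells, and the integrin gene Itgav 151 CPM and Ltbp3 87.1 CPM in LEPR stromal cells.

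Downstream of the receptors, the TGF-beta target genes were lower in LEPR stromal cells than in fibroblasts, with a median of -1.44 on the log2 scale over 10 genes, 6 of them at least 2-fold lower and none 2-fold higher, where 11.3% and 21.6% of all measured genes were. Several of these are matrix genes that define fibroblasts, and Col1a1, at 234 CPM against 3586 CPM, is on the fibroblast marker list itself. Col1a2 stood at 1128 against 3119 CPM, Ccn2 at 353 against 659 CPM and Pmepa1 at 231 against 326 CPM. The 7 measured BMP target genes had a median of 0.10. Id3 stood at 745, 695 and 675 CPM in LEPR stromal cells, fibroblasts and endothelial cells, Id4 was higher in LEPR stromal cells (288 against 42.7 CPM in fibroblasts), and Id1 was highest in endothelial cells (413 CPM against 43.6 CPM in LEPR stromal cells). Dlx5 (48.7 CPM) and Msx1 (31.1 CPM) were also found in LEPR stromal cells, and Id2 stood at 135 CPM in fibroblasts, 23.4 CPM in LEPR stromal cells and 8.33 CPM in megakaryocytes. The 13 SMADs and regulators had a median of 0.38. The inhibitory Smad7 stood at 166 CPM in LEPR stromal cells, 127 CPM in fibroblasts and 215 CPM in endothelial cells, Smad4 at 125, 73 and 70.8 CPM, and Smad1, which carries the BMP signal, at 56.9, 31.5 and 147 CPM. Ski and Smurf2 held 124 and 67.4 CPM in LEPR stromal cells, and Smad2 held 50.9 CPM there and 14.9 CPM in erythroid cells.

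**Figure D4:**
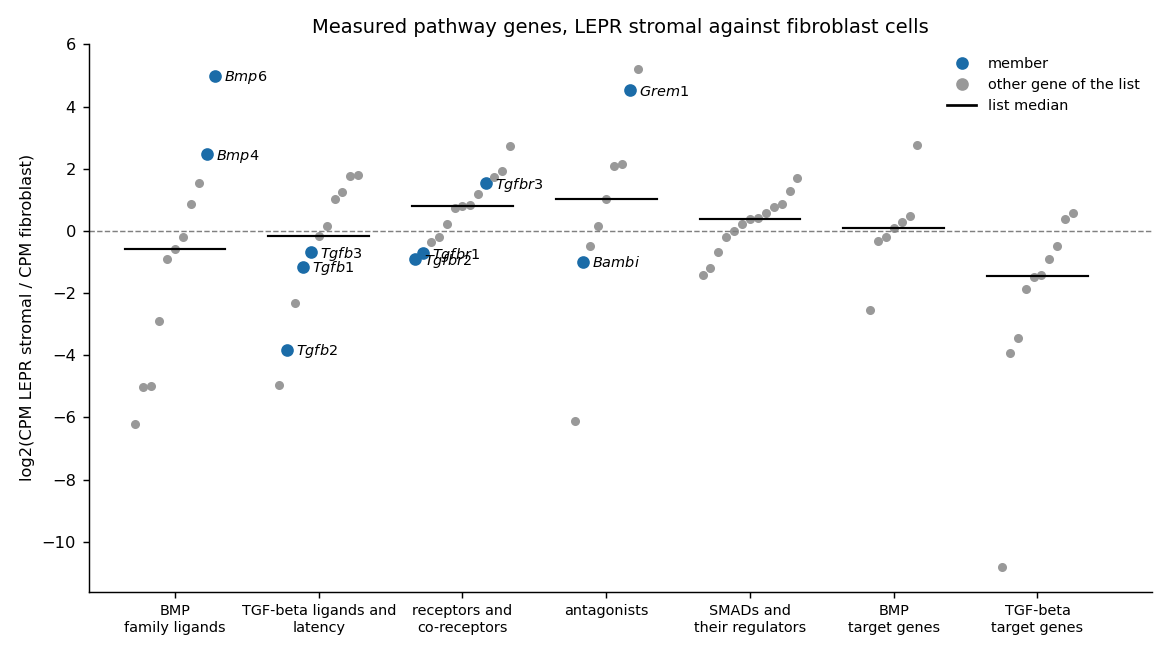
Log2 ratio of CPM in LEPR stromal cells to CPM in fibroblasts for every measured gene of 7 pathway lists, with the 10 members in blue, other genes in grey and the median of each list as a black line. The antagonists have a median of 1.02 and the TGF-beta target genes a median of -1.44.

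Across all 17 clusters the genes most like each member were named by Pearson r of log2(CPM + 1) over the clusters, among 12962 genes with at least 100 UMIs. The clusters share depth, libraries and RNA carried over, and r is given as a description. Bmp4 was closest to Mmp23, Foxc1, a forkhead factor of LEPR stromal cells, and Ggt5 (0.993 to 0.990). Bmp6 was closest to Vegfc, Me3 and Cx3cl1 (0.981 to 0.979), and Grem1 to its fellow antagonist Chrdl1, to the LEPR stromal factor Ebf3 and to Kank4 (0.989 to 0.981). Tgfbr3 was closest to Nrbp2, Cp and Spry4 (0.979 to 0.974). Tgfb3 followed Lpar1, Gdf10 and Slc36a2 (0.995 to 0.993), and Tgfb2 followed Myo1e, Meox2 and Ace (0.972 to 0.969). Tgfbr2 was closest to Irf2bpl, Kctd17 and S100a6 (0.982 to 0.973), Tgfbr1 to Avl9, AW549877 and Snx29 (0.971 to 0.933), and Bambi to Arl5b, Pxdn and Unc5b (0.970 to 0.952). Tgfb1 had the weakest partners, Ptpn11, Rbfa and Coro1c (0.920 to 0.905).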

How the data were processed

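Libraries were made with the 10x Genomics 3′ kit, and the deposited values are whole UMI counts of each gene in each barcode, not normalized, in a matrix for either lane. Per the labels, Cell Ranger, the mm10 build, R 4.0.3 and Seurat 4.0 were used. The members and lists were chosen with earlier results of these data known. Lanes held 116827845 and 120556381 UMIs, and 1483 barcodes were left out by the limits on genes and mitochondrial counts. Counts were summed per barcode over lanes and clustered in R 4.3.3 with Seurat 5.3.0 and sctransform 0.4.2 (30 principal components, 3000 variable genes, resolution 0.8), with the 95 pathway genes kept out of the features. Clusters were named by markers seen in at least 10% of cells at 25% or more of the highest cluster level, with 3 markers needed. A cluster stayed unnamed if its median depth was also below that of all cells (9857 UMIs) divided by 3 and no marker was among its 10 leading genes. This left 3 of 17 clusters unnamed (859 cells), which held 6, 7 and 13 of the 15 erythroid markers. The LEPR gate was applied first, and 1735 of its cells lay in the LEPR clusters, 137 in unnamed clusters and 5 in clusters of other classes.

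A molecule can be counted in both lanes, so CPM and its exact Poisson interval, ratios with their exact conditional binomial interval, and floors where no UMI was seen (3 counts, a one-sided 95% limit) rest on lane means. Shares count a UMI in either lane, with Clopper-Pearson intervals. These cover counting error only, and the ratio intervals were tested on simulated data. With 1 sample there is no test, and "called" means a 2-fold difference. Doublets were kept, and Scrublet (scanpy 1.11.5, Python 3.11.15), used as an alternative, called 230 of the cells (2.4%). Reads from one gene or a gene on the other strand could be told apart only if counting used strand, which is not given in the sources used here. The genes named were all members, the 5 pathway genes of each list highest in LEPR stromal cells and the highest in each other class, the 3 genes most like each member, and some of the 5 genes leading by detection for a member (all 5 for Bmp4, the first for the others) and of the 5 leading each sub-cluster. Gene positions are from GENCODE M21 (GRCm38), in which 32158 of 32285 identifiers were found, and promoters from RefSeq (GRCm38.p6), which held 7 of the 10 members, without Tgfb3, Tgfbr3 and Bambi.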

Additional observations from a re-analysis of the deposited data

Results flagged for a closer look

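The 1483 barcodes left out of every comparison held 9 of the 10 members above the level that a count of 0 allows (1.14 CPM), the exception being Tgfb2 at 0.953 CPM. The share of all genes above that level was not worked out, so nothing about the members is read from this count. The median of these barcodes was 2441 UMIs with 55.9% mitochondrial counts. In them Tgfb1 stood at 50.7 CPM, Tgfbr3 at 18.1 CPM, Tgfbr1 at 8.39 CPM, Grem1 at 6.29 CPM, Bmp6 at 4.58 CPM, Bmp4 at 3.81 CPM, Bambi at 3.05 CPM, Tgfbr2 at 2.86 CPM and Tgfb3 at 1.91 CPM. Bmp4, Bmp6, Grem1 and Tgfbr3 were far below their LEPR stromal levels there, and Cxcl12, which marks LEPR stromal cells, stood at 424 CPM.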

How the results depend on the processing

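Under 12 alternatives (10% mitochondrial limit, 500 genes per barcode, doublets removed, each lane alone, LEPR stromal cells by cluster, a Cxcl12 limit of 10000 CPM, mean of each cell's CPM, resolutions of 0.4 and 1.2, clustering with the pathway genes, and erythroid RNA subtracted from the other classes with stromal RNA subtracted from erythroid cells) the same 4 genes, Bmp4, Bmp6, Grem1 and Tgfbr3, were highest in LEPR stromal cells. Of 120 log2 ratios of LEPR stromal cells to the highest other class, 118 stayed within the counting interval and none changed direction. At resolutions of 0.4 and 1.2 every ratio equalled the main one to the printed digit, so these settings moved nothing. Each lane alone holds the same cells, so those settings could move little. Such ratios are part of the 120 and say little about stability. With the mean of each cell's CPM the ratio moved to -2.14 for Tgfbr2 against endothelial cells and to 1.2 for Tgfbr3 against fibroblasts, and the cause was not tested. Sub-clustering LEPR stromal cells at resolution 0.4, chosen after seeing the data, moved the log2 difference of Dnm3os-led cells to 0.23 for Bmp4 and -0.12 for Bmp6. The Dnm3os-led sub-cluster then held 592 in place of 531 cells and the one it was set against 747 in place of 455, and the cause was not tested. Thinning to 2000 in place of 1000 UMIs gave higher shares for all 10 genes in LEPR stromal cells, over the 1295 in place of 1750 cells that reach that depth. No paired analysis was possible because the lanes are 1 sample of 1 group. Depth limits the 62 endothelial cells most, where 3 UMIs equal 17.7 CPM. Stromal RNA in fibroblasts and endothelial cells was not subtracted, and no value holds the spread between mice.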

Other observations

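Outside the 5 classes, the 946 remaining cells held Bmp4 at 26.1 CPM, Bmp6 at 23.8 CPM, Grem1 at 32.5 CPM and Tgfbr3 at 44.5 CPM, and Tgfb1 at 55.5 CPM. In the 46 plasma-like cells among them Tgfb1 stood at 23.7 CPM and Tgfbr1 at 9.08 CPM, and Bmp4, Grem1, Tgfb2 and Tgfb3 had no UMI.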
